A study of Homo sapiens with 2 samples.

Results

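Vascular endothelial growth factor (VEGF) signalling is described here through 9 genes: the ligands VEGFA, VEGFB, VEGFC and PGF, the receptors FLT1, KDR and FLT4, and the co-receptors NRP1 and NRP2. They were chosen by name, with earlier results of these data known. All 9 were measured, each by 1 array feature, among 14812 genes with a named feature. The 2 samples were lines of MCF-10A, an established human line of mammary epithelium that does not form tumours. The control line stably carried an EGFP vector, and the other, called EGFP-ARHGAP4, stably carried ARHGAP4 joined to EGFP. ARHGAP4 is a GTPase-activating protein. Nothing in the labels says whether either line is a clone or a pool of cells. There was 1 whole-transcript array per line, so no value has a replicate error, and no test was possible.

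VEGF ligands are secreted dimers that bind receptor tyrosine kinases on the cell surface. VEGFA binds FLT1 and KDR, PGF and VEGFB bind FLT1, and VEGFC binds FLT4 and, once processed, KDR. KDR (VEGF receptor 2) carries most of the mitogenic and migratory signal in endothelial cells, FLT1 (VEGF receptor 1) acts largely as a decoy there, and FLT4 (VEGF receptor 3) is best known from lymphatic vessels. NRP1 and NRP2 are neuropilins, which hold VEGF ligands next to these receptors and also form the binding part of receptors for class 3 semaphorins. Epithelial cells are known mainly as a source of VEGFA.

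The table holds deposited log2 values for 44629 features, with a median of 2.88 in both arrays. ARHGAP4 was at 4.49 in the control line and at 6.68 in the EGFP-ARHGAP4 line, the direction of the labels. Where a pair of values is given below, the control line comes first. A gene passed the level filter if at least 1 of its values reached 4.02, the overall median of gene values, and 7685 genes did. Their median difference, EGFP-ARHGAP4 minus control, was -0.10, and 85.0% of them lay within 0.5 of 0. As deposited, 138 genes were at least 2-fold apart and 55.8% of these were higher in the EGFP-ARHGAP4 line; among the genes 2-fold apart, the share was 67.2% after quantile normalization, 71.3% after centring and 68.9% after removal of the level trend. For the 336 genes past the filter with more than 1 feature, the differences of a gene's own features had a pooled SD of 0.21, which is no spread between cultures.

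The RefSeq promoter table (GRCh38.p14) holds 6 of the 9 members: KDR, FLT1, NRP2, VEGFB, VEGFC and PGF. The 250 bases before the start are shown for the 3 of them whose RNA differed by at least 0.5 on the log2 scale, KDR and PGF (higher) and VEGFC (lower), read 5′ to 3′ towards the gene, with GC boxes (GGGCGG on either strand) in capitals.
KDR (chr4:55125596-55125845, minus strand): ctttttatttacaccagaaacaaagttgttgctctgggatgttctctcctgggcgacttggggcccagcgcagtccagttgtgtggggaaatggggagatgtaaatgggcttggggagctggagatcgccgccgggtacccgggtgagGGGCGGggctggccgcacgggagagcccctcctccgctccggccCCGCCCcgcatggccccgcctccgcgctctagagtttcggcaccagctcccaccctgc
PGF (chr14:74955765-74956014, minus strand): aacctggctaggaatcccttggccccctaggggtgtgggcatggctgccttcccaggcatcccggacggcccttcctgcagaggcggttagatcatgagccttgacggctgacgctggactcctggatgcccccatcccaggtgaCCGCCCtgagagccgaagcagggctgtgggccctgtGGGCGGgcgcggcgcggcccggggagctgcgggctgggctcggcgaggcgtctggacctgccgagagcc
VEGFC (chr4:176792923-176793172, minus strand): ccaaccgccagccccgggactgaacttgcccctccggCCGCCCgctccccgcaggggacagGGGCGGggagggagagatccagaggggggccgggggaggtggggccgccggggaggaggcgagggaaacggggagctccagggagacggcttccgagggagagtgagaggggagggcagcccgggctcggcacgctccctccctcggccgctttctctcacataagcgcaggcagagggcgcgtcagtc

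The human KDR promoter is known to lack a TATA box and to be driven through Sp1 sites in GC-rich sequence. Each of the 3 windows held 2 GC boxes. Of all 35116 promoter windows of this length, 42.6% held at least 1. GC content was 65.2% for KDR, 70.8% for PGF and 74.0% for VEGFC, against a median of 58.0% over all windows. FLT1, whose RNA differed little, held 3 GC boxes and the only TATAAA among the 6 members, a motif in 10.7% of all windows. The hypoxia response core ACGTG (18.5% of all windows) and the AP-1 site TGACTCA (4.20%) were in none of the 6 windows, on either strand. The EGR site GCGNGGGCG, which can overlap a GC box, was in those of VEGFB and FLT1 and in 8.42% of all. A GC box was thus in the windows of KDR and PGF, which were higher, and of VEGFC, which was lower. VEGFB and NRP2, whose RNA also differed little, held 6 and 3. NRP1, the lowest member, had no window to read. These matches describe letters, not binding.

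Among the receptors, KDR differed and its relatives did not differ by 0.5. KDR was at 3.36 in the control line and at 5.63 in the EGFP-ARHGAP4 line, a difference of 2.27 or 4.83-fold. It was thus below the level filter in 1 line and at the 71.9 percentile of all genes in the other, from the 39.2 percentile. Because KDR passed the filter only through the EGFP-ARHGAP4 array, it had to be higher there to be counted, and near the lower end of the scale a fold is approximate. In a culture measured in bulk, more cells with the RNA and more RNA per cell cannot be told apart. FLT1 stood at 2.58 and 2.46, and FLT4 at 2.77 and 2.63. Both lay below the filter in both arrays, between the 20.5 and 27.7 percentiles, where a change could go unseen. FLT1 RNA also encodes a secreted receptor, and with 1 feature the forms were not separated.

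**Figure D1:**
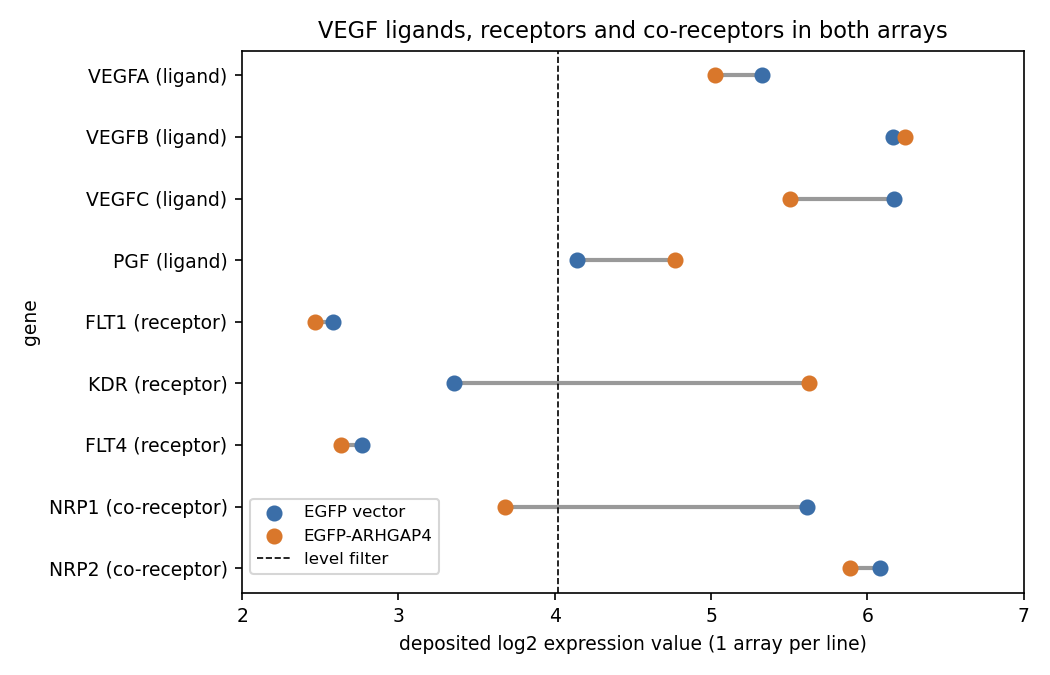
Deposited log2 expression value (x axis) of the 9 VEGF genes (y axis) in the EGFP vector control (blue) and EGFP-ARHGAP4 (orange) lines, 1 array each, with no error bars; the dashed line is the level filter at 4.02. KDR crosses the line upwards, from 3.36 to 5.63, and NRP1 crosses it downwards, from 5.61 to 3.68.

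The neuropilins parted from each other. NRP1, a receptor for VEGFA and semaphorins, was at 5.61 in the control line and at 3.68 in the EGFP-ARHGAP4 line, a difference of -1.93 or 3.81-fold lower. Its place among all genes went from the 70.6 to the 44.5 percentile, so that it passed the filter only through the control array. NRP2, a receptor for VEGFC and semaphorins, stood at 6.08 and 5.89, a difference of -0.19, and kept its place among all genes, at the 76.5 and 75.4 percentiles. The NRP1 difference was 1.74 further down than that of NRP2. The difference of KDR and that of NRP1 lay 4.20 apart, in opposite directions. Both neuropilin genes also produce secreted forms, which these values do not separate from the membrane proteins.

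The ligands differed less, and not in 1 direction. VEGFA, the main ligand of KDR, was at 5.32 in the control line and at 5.02 in the EGFP-ARHGAP4 line, a difference of -0.30. VEGFC stood at 6.17 and 5.50, and was 1.59-fold lower in the EGFP-ARHGAP4 line. PGF, placental growth factor, stood at 4.15 and 4.77, and was 1.54-fold higher. VEGFB stood at 6.16 and 6.24, a difference of 0.08. All 4 ligands were above the filter in both arrays. PGF, just above it in the control line, went from the 51.7 to the 60.7 percentile, and VEGFC from the 77.6 to the 70.3. VEGFD was not analysed here.

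Against the background of all genes past the filter, 1 member, KDR, was at least 2-fold higher, where 1.0% of genes were, and 1 member, NRP1, at least 2-fold lower, where 0.794% were. At a difference of 0.5, KDR and PGF were higher (5.15% of genes) and NRP1 and VEGFC lower (9.81%). Since these genes were put together with such differences in view, the counts describe the members and support nothing further. KDR had the 4th highest difference of the 7685 genes and NRP1 the 2nd lowest, while PGF was 230th from the top and VEGFC 322nd from the bottom. The remaining 5 members, VEGFA, VEGFB, NRP2, FLT1 and FLT4, lay between -0.30 and 0.08. Over all 9 the median was -0.13, and over all 14812 genes it was -0.03.

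**Figure D2:**
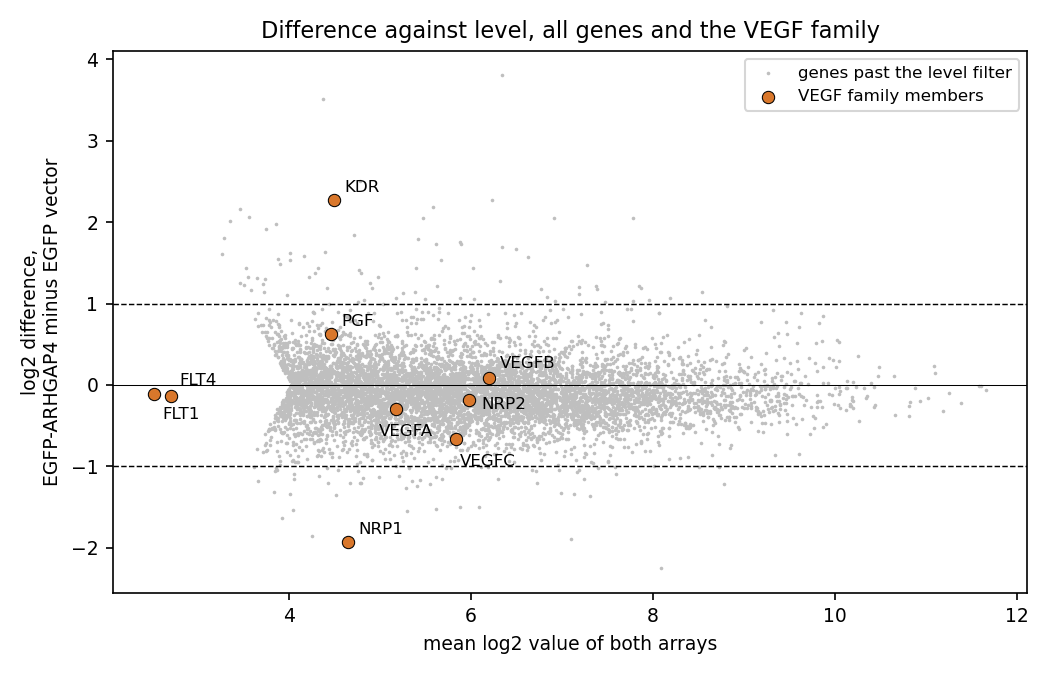
Log2 difference, EGFP-ARHGAP4 minus EGFP vector (y axis), against the mean log2 value of both arrays (x axis), for the 7685 genes past the level filter (grey) and the 9 VEGF genes (orange); dashed lines mark 2-fold. KDR at 2.27 and NRP1 at -1.93 lie outside the lines, and the other members, including FLT1 and FLT4 below the filter, lie inside.

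KDR and NRP1 also differed in how their chromosomal neighbours behaved. The 20 nearest genes past the filter around KDR on chromosome 4, 10 on either side, had a median of -0.25. Of these 20, 15 were below 0, where 4719 of all 7685 genes past the filter were. The 284 genes of the whole of chromosome 4 past the filter had a median of -0.22. CHIC2, FIP1L1 and SCFD2 on one side lay at 0.00, -0.23 and -0.22, and TMEM165, CLOCK and NMU on the other at -0.28, -0.43 and -0.57. SPATA18, at 1.06, was the single neighbour 2-fold higher, and is named after its value was seen. KDR lay 2.53 above the median of its neighbours. KIT, a receptor gene from the same cluster of related kinases, was below the filter, with the same value of 2.18 in both arrays; it too is named after its value was seen.

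Around NRP1 on chromosome 10, 17 of the 20 neighbours were below 0, as were 4719 of all 7685 genes past the filter. That count was not particular to NRP1, with 17 of 20 around NRP2 and 18 of 20 around VEGFC. The 20 neighbours of NRP1 had a median of -0.80. EPC1, KIF5B and ARHGAP12 on one side lay at -0.58, -1.21 and -0.34, and PARD3, CUL2 and CREM on the other at -0.93, -1.32 and -0.69. Of the 20, 4 were at least 2-fold lower and none as low as NRP1, the lowest being SVIL-AS1 at -1.34. NRP1 lay 1.12 below the median of its neighbours. A lower level thus ran along most of this stretch. It was not seen at FZD8, which lies within the stretch on the PARD3 side and was the highest of the 20, at 0.18. Nor was it seen at the far end on that side, where LINC00999, LINC00839 and ZNF33B lay at -0.08, 0.16 and 0.00. The 307 genes of the whole of chromosome 10 past the filter had a median of 0.18. That median joins genes that went opposite ways, such as ABI1 (-1.02) and ANKRD26 (-1.14) against ADAM8 (1.53) and ANKRD1 (2.51). It therefore does not show how far the lower level reached, and the arms of the chromosome were not separated here. These further genes of chromosome 10 are named after their values were seen. The part of the stretch in the NRP1 value was not tested. For the other 7 members (with 15 neighbours in the case of FLT4, near a chromosome end) the median of the neighbours lay between -0.37, around VEGFC, and 0.005, around VEGFB. VEGFC was 0.30 below its neighbours and PGF 0.68 above. FLT1, at -0.12, lies within 10 such genes of ALOX5AP, which had the highest difference of all genes past the filter, 3.80; the median around FLT1 was -0.31.

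**Figure D3:**
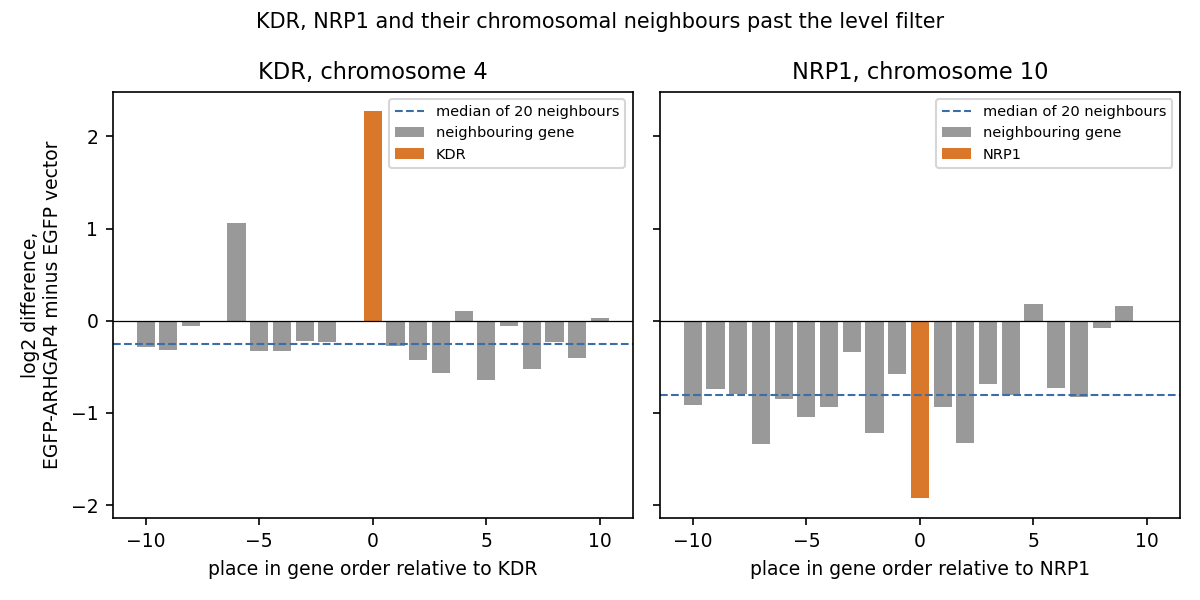
Log2 difference, EGFP-ARHGAP4 minus EGFP vector (y axis, bars from 0), of KDR (left) and NRP1 (right) in orange and of the 10 genes past the level filter on either side in grey, by place in gene order (x axis); the dashed line is the median of the 20 neighbours. KDR stands against neighbours centred on -0.25, whereas NRP1 lies below neighbours that are themselves centred on -0.80.

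The genes past the filter whose pair of values came closest to that of KDR, by straight-line distance on the log2 scale over the 2 arrays, were ANKRD1 (distance 0.43), TSPAN1 (0.44) and CA8 (0.48). ANKRD1, a stress-responsive ankyrin repeat protein, stood at 3.52 and 6.03. TSPAN1, a tetraspanin, stood at 3.80 and 5.64, and CA8, a carbonic anhydrase relative, at 3.58 and 5.21. Closest to NRP1 were ZFP69 (distance 0.45), at 5.19 and 3.85, FAXC (0.51), at 5.28 and 4.07, and QRFPR (0.54), at 5.38 and 4.17. None of these 3 lies on chromosome 10, whereas ANKRD1, the nearest to KDR, does. With 2 arrays such likeness means no more than a similar pair of values.

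The pathway downstream of KDR was measured in part. Of 59 listed genes of VEGF receptor signalling, from adaptors and Src kinases to the ERK, p38, PI3K and calcineurin branches, 28 had a named feature and 25 passed the filter. PLCG1, the phospholipase that KDR recruits, was not analysed here, nor were the PI3K subunits. Of the 25, 11 were above 0 and 14 below, and the median was -0.01. None was 2-fold apart, where 1.0% of all genes past the filter were 2-fold higher and 0.794% lower. The adaptor gene NCK1, at 5.92 and 5.28, and the Src family kinase gene YES1, at 8.28 and 7.77, were lower by at least 0.5, where 9.81% of all genes past the filter were, and none was higher by that much, where 5.15% were. A count of 2 among 25 is near that background.

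Of 30 listed genes known to be induced by VEGF in endothelial cells, 23 were measured, with a median difference of 0.13 against -0.03 over all 14812 genes. Of the 14 that passed the filter 11 were above 0, where 36.7% of all genes past it were, and 6 were higher by at least 0.5, where 5.15% were. CXCL8, EGR3 and PTGS2 (3.67 and 4.11, named after its values were seen) passed only through the EGFP-ARHGAP4 array and so had to be above 0. Of the other 11, 8 were above 0. CXCL8 and EGR3 are also among the 6, so that count too was partly set by the filter. The list was chosen with earlier results of these data known, so both counts describe its genes and support nothing further. The chemokine gene CXCL8 stood at 3.82 and 4.71 (0.90 higher) and EGR3, a transcription factor gene of the early response, at 3.42 and 4.23 (0.80 higher). The phosphatase genes DUSP1 and DUSP5 were 0.55 and 0.53 higher, and the transcription factor genes FOS and KLF4 0.53 and 0.50. APOLD1, an endothelial early response gene, was 0.51 lower, at 4.60 and 4.09. DUSP5, KLF4 and APOLD1 are named after their values were seen. These genes answer many stimuli. None was 2-fold apart, where 1.0% of all genes past the filter were 2-fold higher and 0.794% lower. The endothelial tip cell genes ESM1, DLL4 and ANGPT2, named after their values were seen, were below the filter in both arrays, at 2.72 to 2.96. The 9 measured list genes below the filter lay between -0.42, for RCAN1 (3.32 and 2.90), and 0.19, for DLL4. RCAN1 too is named after its value was seen.

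Of the partners of neuropilins, no class 3 semaphorin gene was analysed here. The plexins, which carry the semaphorin signal into the cell, were measured in 5 cases, and PLXNA1, PLXNA2 and PLXNA3 passed the filter with differences from -0.11 to 0.45. Of 14 listed genes of hypoxia sensing and VEGFA control 7 were measured, with HIF1A and VHL not analysed here, and the 5 past the filter lay between -0.29 and 0.24. Of 30 genes for trafficking and inhibition of VEGF receptors 14 were measured, with a median of 0.19, and the 9 that passed had a median of 0.01. GRB10, an adaptor that binds activated KDR, was lower, at 4.75 and 4.24, and the highest of the 9 was at 0.475.

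Among related growth factor genes past the filter none was 2-fold apart, where 1.0% of all genes past it were 2-fold higher and 0.794% lower. Of 19 listed genes of the PDGF, KIT, CSF1 and angiopoietin systems, 16 were measured and 8 passed the filter, 4 above 0 and 4 below. FLT3LG, the ligand of the receptor FLT3, stood at 5.28 and 5.85 (0.57 higher), and PDGFD, a ligand of PDGF receptors, at 5.21 and 4.69 (0.53 lower). No other gene of the 8 differed by 0.5, where 5.15% of all genes past the filter were higher and 9.81% lower by that much. With 8 genes, such counts cannot be told from those shares.

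**Figure D4:**
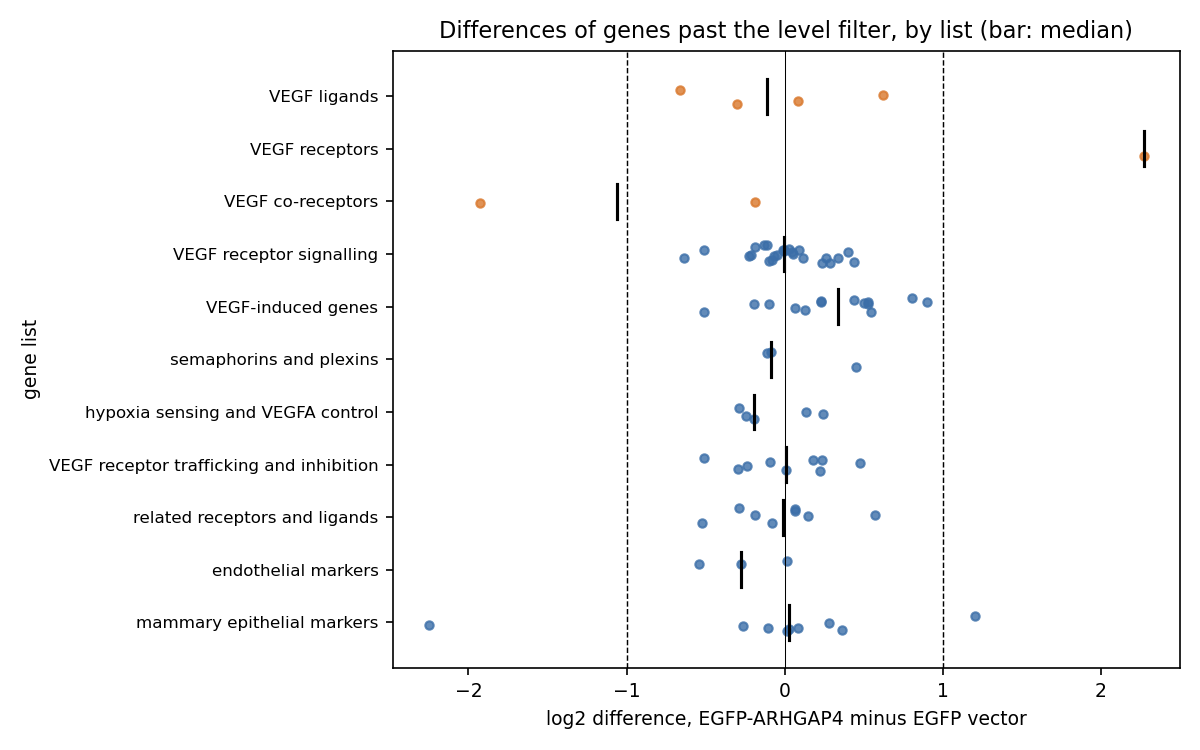
Log2 difference, EGFP-ARHGAP4 minus EGFP vector (x axis), of each gene past the level filter in the lists named on the y axis, with the VEGF genes in orange; points are spread vertically for sight only, short bars are medians and dashed lines mark 2-fold. Outside the dashed lines lie KDR, NRP1, and KRT14 and EPCAM among the mammary epithelial markers.

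KDR is itself used as an endothelial marker, so the other markers of that cell type were set beside it. Of 24 listed, 18 were measured, with PECAM1 and CDH5 not analysed here. Of these 18, 15 lay below the filter in both arrays, where 7127 of all 14812 genes did. Over the 18 the median level was 2.96 and 3.03, and the median difference was 0.03. VWF stood at 2.68 and 2.80, the 26.0 and 27.9 percentiles of all genes, and TIE1 at 2.63 and 2.94, the 24.6 and 30.9 percentiles. EMCN stood at 1.72 and 1.41, the 4.98 and 1.13 percentiles. The 3 past the filter were CLDN5 at 4.31 and 4.32, SOX17 at 4.11 and 3.83, and ENG, a TGF-beta co-receptor not confined to endothelium, which was lower at 7.95 and 7.41. Of 22 mammary epithelial markers 12 were measured and 9 passed the filter, among them KRT5 at 8.33 and 8.34, named after its value was seen. The basal keratin gene KRT14 was 2-fold or more lower, at 9.21 and 6.96, and the adhesion gene EPCAM 2-fold or more higher, at 6.58 and 7.79; the part of such differences in KDR and NRP1 was not tested.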

How the data were processed

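The deposited table gives 1 log2 expression value per feature and array, made by the authors. Software and normalization were not given in the sources used here. Values were taken as log2 because the highest, 12.8, exceeds both the natural log (11.1) and the log10 (4.82) of a 16-bit reading. Both arrays hold the same value in 3106 features (6.96%). Per the labels' protocols, total RNA was amplified with a whole-transcript kit and biotin-labelled. Features were named through the platform annotation of 2020 (15835 features with 1 symbol, 0 with several, 28794 unnamed), and symbols were updated by Entrez identifier through the GRCh38.p14 RefSeq gene table, used otherwise for gene order. Of 2 promoter entries for PGF, the one at the outer start was taken. Features of a gene were averaged. Differences were not scaled further.

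The members and lists were chosen with earlier results of these data known. Named genes were all members, list genes past the filter at 2-fold and up to 4 more at 0.5, the 3 genes nearest to KDR and NRP1, 3 neighbours on either side of them, and ARHGAP4; further genes were named after their values were seen, as marked in the text, as defining markers or as counts of 5 or fewer. The number of arrays limits the precision. Python 3.11.15 was used with matplotlib 3.10.9, statsmodels 0.14.6, numpy 2.4.6 and pandas 2.3.3; calculations were tested on simulated data. Alternatives were other normalizations (quantile, centring, loess of span 0.3), filters, thresholds and feature choice, and leaving out chromosome 10.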

Additional observations from a re-analysis of the deposited data

How the results depend on the processing

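As deposited and under the other scalings (quantile, centring, loess), KDR ranged from 2.27 to 2.37 and NRP1 from -1.93 to -1.83; no member changed sign, and none moved by more than 0.11. Each member has 1 feature, so the choice of feature could not change its value. With the level filter at the 0.75 quantile (5.91), 3 members passed (VEGFB, VEGFC and NRP2), and 0 were 2-fold higher or lower. At 1.5-fold and at a difference of 0.5, 2 were higher and 2 lower. Over all genes, the 77 higher became 39 with the stricter filter, 277 at 1.5-fold, 25 at 3-fold and 396 at 0.5. The 61 lower became 37 after centring, 35 with the stricter filter, 495 at 1.5-fold, 5 at 3-fold, 754 at 0.5 and 38 without chromosome 10, which holds NRP1. The median of the semaphorin and plexin list, -0.03, was 0.18 past the stricter filter. That of the endothelial markers, 0.03, was -0.28 past the filter and -0.54 past the stricter one, where only ENG remained. Of 64 list medians tried, 10 changed sign. No paired analysis was possible because each line has 1 array.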

Other observations

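KDR was also set beside the other receptor tyrosine kinases, the family of cell surface receptors to which it belongs, with a list added after the data were seen. Of 58 such genes, 48 were measured and 22 passed the level filter. KDR was the only one of the 22 that was 2-fold apart, where 1.0% of all genes past the filter were 2-fold higher and 0.794% lower. KDR was known to differ before the list was made, and it passed only through the EGFP-ARHGAP4 array. Its place among these kinases was thus set beforehand and supports nothing further. The next highest were FGFR2, a fibroblast growth factor receptor, at 3.37 and 4.02 in the control and EGFP-ARHGAP4 lines (0.65 higher), which like KDR passed the filter only through the EGFP-ARHGAP4 array, and the ephrin receptor gene EPHA1 at 4.26 and 4.84 (0.59 higher). The insulin receptor gene INSR was the lowest, at 4.76 and 3.97, a difference of -0.80. The receptors best known from this cell line differed little: EGFR stood at 9.40 and 9.56, and MET, a receptor for hepatocyte growth factor, at 8.48 and 8.30. Without the VEGF receptors, the 21 kinases past the filter had a median of 0.00, with 10 above 0 and 10 below. That 0 of these 21 were 2-fold apart is near the background shares. Of 4 genes that share the CUB domain with neuropilins, 2 were measured. NETO2 stood at 9.11 and 8.84, and NETO1 was below the filter at 2.61 and 3.07.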
